A study of Mus musculus with 82 samples.

Results

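Nms encodes neuromedin S, a neuropeptide made by a large share of the neurons of the suprachiasmatic nucleus (SCN), and served here to divide hexagons of SCN tissue into Nms-poor and Nms-rich. A hexagon was Nms-poor when Nms in its library was under 30 CPM, counts scaled to a library total of 1000000, and Nms-rich from 100 CPM, so that both classes were chosen by the measured level of Nms alone. Libraries under 100000 total counts were set aside. Of 82 hexagons, 7 were Nms-poor, 56 were Nms-rich, 18 lay between the limits, and 1 fell under the depth minimum. The question was which transcripts mark tissue at or beyond the border of the nucleus. All hexagons came from C57BL/6 mice aged 8 weeks, with no treatment that differed between them, and were cut by laser capture microdissection from cresyl violet-stained sections on a grid of hexagons of up to 40 µm radius. Libraries were made with Smart-seq2, which amplifies whole transcripts from minute amounts of RNA. Each hexagon has 3 labelled coordinates that carry no unit and no direction, and neither the animal nor its sex nor the hour of collection is labelled.

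The SCN sits above the optic chiasm and holds the central circadian pacemaker of mammals. Nearly all of its neurons use GABA, and they are told apart by their peptides, such as vasopressin, vasoactive intestinal peptide and gastrin-releasing peptide. Each neuron runs a clock in which CLOCK and BMAL1 drive transcription of the Period, Cryptochrome and Rev-erb genes from E-box elements, and peptides couple the cells and carry the output. The nucleus borders other hypothalamic areas, where GABA neurons are also common, and the fibres of the chiasm.

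Nms itself chose the classes, so its values are a description without a test, and the tests of other genes show which transcripts differ where Nms is low in the same libraries. It had 0.849, 2.84, 4.82, 6.50, 20.7, 28.8 and 29.98 CPM in the 7 Nms-poor hexagons, which rest on 1 to 54 counts each. The lowest intermediate hexagon had 35.97 CPM, the highest intermediate one 86.7 and the lowest Nms-rich one 100.25. The Nms-rich hexagons had a median of 184 CPM and a highest value of 530 CPM. The limit at 30 CPM therefore passes between values that lie close together, and 3 of the 7 hexagons still held 20.7 CPM or more. The 82 hexagons fall into 9 sections by their anterior-posterior coordinate, numbered from the lowest. Sections 1, 3 and 7 hold 2 Nms-poor hexagons each and section 6 holds 1. Replicate numbers are names in accession order. Only these 4 sections, with 26 Nms-rich hexagons, bear on the contrast, because section was a factor in the fit. The others help to estimate the spread.

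The Nms-poor hexagons lay at the high end of the medial-lateral axis. Their medial-lateral coordinate was 1441 ± 66.7 (SD, n = 7), against 1256 ± 81.7 (SD, n = 26) in the Nms-rich hexagons of the same sections. The difference within sections was 162, with an exact two-sided permutation p over 59400 arrangements of 3.37e-05 and an adjusted p over 6 measures of 1.52e-04. Here too hexagons may share a mouse, which makes the p-values too small. In section 3 they were the hexagons of highest and second-highest coordinate of 12, and in section 7 the same of 13. The Nms-poor hexagon of section 6 had the second-highest coordinate of 14. In section 1, with 4 hexagons, replicate 4 had the highest medial-lateral coordinate and replicate 3 the third-highest, with the lowest dorsal-ventral coordinate of that section, 680. The dorsal-ventral coordinate differed by 44.1 (adjusted exact permutation p = 0.514) and the distance from the centre of the section's hexagons by 24.8 (adjusted exact permutation p = 0.514). Neither passed the threshold. Whether that end of the axis is the lateral border cannot be read from the labels.

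**Figure D1:**
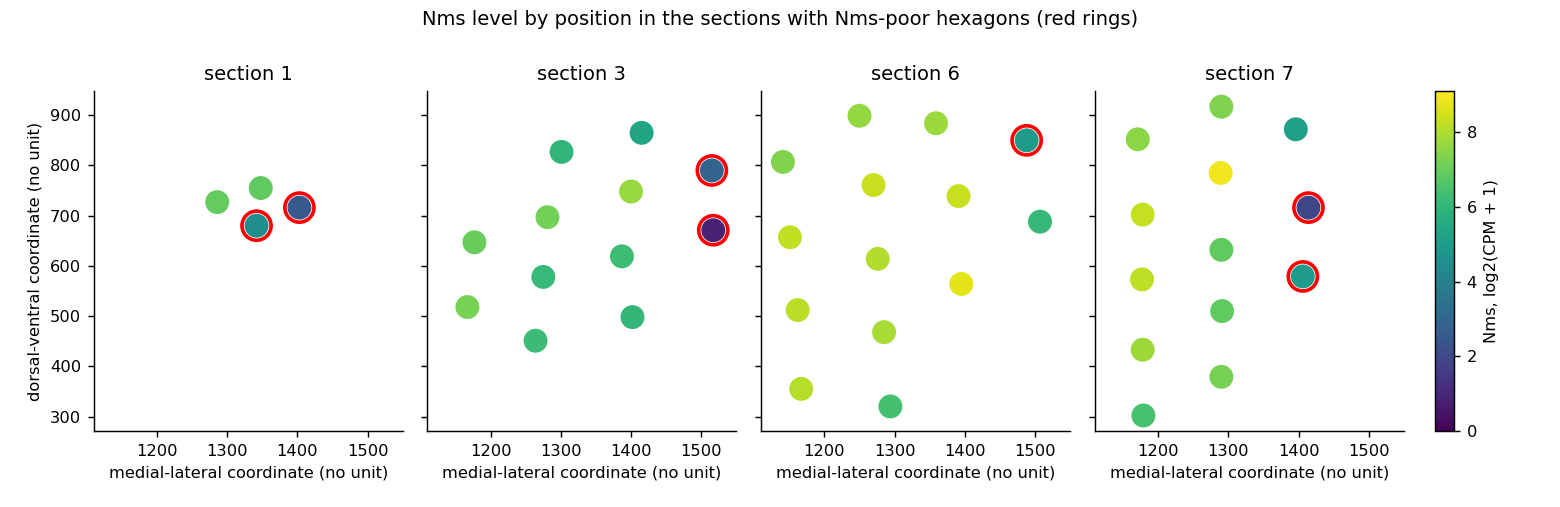
Each point is 1 hexagon at its medial-lateral (horizontal) and dorsal-ventral (vertical) coordinate, both without a unit, in the 4 sections that hold Nms-poor hexagons. Colour gives Nms as log2(CPM + 1), and red rings mark the 7 Nms-poor hexagons, which have medial-lateral coordinates from 1342 to 1517.

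Library measures also differed between the classes. Total counts were 414797 to 1800916 per Nms-poor library and 158181 to 2843366 per Nms-rich library, and log10 totals differed within sections by 0.0241 (adjusted exact permutation p = 0.827). Genes detected numbered 11043 ± 238 (SD, n = 7) in Nms-poor and 11820 ± 649 (SD, n = 26) in Nms-rich hexagons of the same sections, a difference within sections of -769 (adjusted exact permutation p = 0.00199). Mitochondrially encoded transcripts took 2.03% ± 0.354 (SD, n = 7) of counts against 1.47% ± 0.289 (SD, n = 26), a difference of 0.555 (adjusted exact permutation p = 1.52e-04). In sections 6 and 7 the first letter of the label, taken as a library set, varies, and the permutations ignored it. The Nms-poor hexagons of section 7 share a set and had 2.29% and 2.23%. Nms-rich ones of that set there had 1.38% to 2.30%. In section 6 it was 1.98% beside 1.42% to 1.85% in the same set. Fits with genes detected, or with both coordinates, as covariates are given beside the gene lists that had calls. What part these measures play in the results was not tested otherwise.

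In Nms-poor hexagons 10 of 18 tested SCN-enriched regulators and receptors were lower, among them Syt10, Rgs16 and Six6. Some transcripts of vesicle fusion, of GABA and glycine receptors and of mitochondrial respiration were higher, among them Napb, Gabrg1 and Ndufa4. The lists that hold Napb, Gabrg1 and Ndufa4 were chosen after values were seen. Of 11468 genes tested with edgeR's quasi-likelihood test, 269 (2.35%) differed at an adjusted p under 0.05, and they are referred to as called. Of these, 97 (0.846%) were higher and 172 (1.5%) lower in Nms-poor hexagons. The median log2 difference, Nms-poor minus Nms-rich, was -0.06 over all tested genes, 0.74 over the called higher genes and -1.56 over the called lower genes. No gene had all 7 Nms-poor hexagons outside the range of the 56 Nms-rich ones (0%). Of the 172 lower genes, 120 had all 7 Nms-poor hexagons below the median of the 56 Nms-rich ones. Of the 97 higher genes 48 had all 7 above it. The same hexagons chose these genes, so both counts describe the calls and add no support to them. The share over all tested genes was not computed. Some hexagons may come from the same mouse, and because the fit treats each as independent, its p-values are too small. The calls leaned on section 7: without it 28 genes were called, 24 of them among the 269, and without its replicate 12 alone 101 were called. All 269 genes kept the sign of their difference in each of 33 alternative fits. Those fits reuse most of the hexagons that chose the genes, so the kept signs are no separate support. Gabrg1 was called in 14 of the 33 fits, Napb in 32 and Ndufa4 in 29. A lower level in a hexagon can come from fewer cells of a type or from less RNA per cell, and the counts do not tell these apart.

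Among 19 SCN-enriched regulators and receptors, 18 could be tested, and 10 were lower and 0 higher in Nms-poor hexagons. The median log2 difference of the 18 was -1.76, beside -0.06 over all tested genes, and 17 of 18 were negative. Their summed level ran from 1069 to 3625 CPM in Nms-poor hexagons (median 2741) and from 2914 to 9184 CPM in Nms-rich ones (median 6340). The lower genes were the transcription factors Six6, Rorb, Rora and Zfhx3, the vesicle protein Syt10, the signalling regulators Rgs16 and Rasl11b, and the receptors Vipr2, Prokr2 and Grpr.

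Syt10 encodes a synaptotagmin, a calcium sensor of vesicle exocytosis that is enriched in the SCN. It had 71.1, 131 and 371 CPM as lowest, median and highest value in Nms-poor hexagons, and 200, 808 and 1445 CPM in Nms-rich ones. In 6 of 7 Nms-poor hexagons it lay below the lowest Nms-rich hexagon, and replicate 13 of section 6 overlapped the Nms-rich range. The log2 difference was -1.87 (SE 0.30, edgeR adjusted p = 1.9e-04), and Syt10 (chr15:89782393-89841860, GRCm38, as are all positions given) was called in 33 of 33 alternative fits. Rgs16, which speeds the shutdown of inhibitory G protein signalling, had 31.3, 193 and 515 CPM against 256, 767 and 1902 CPM. Again 6 of 7 Nms-poor hexagons were below all Nms-rich ones, with replicate 13 of section 6 as the exception. Its log2 difference was -1.80 (SE 0.36, edgeR adjusted p = 0.0023), and Rgs16 (chr1:153740349-153745468) was called in 31 of 33 alternatives. Six6, a homeobox factor needed for the SCN to form, had 6.66, 47.5 and 78.1 CPM against 32.8, 146 and 315 CPM. All 7 Nms-poor hexagons were under the Nms-rich median and 3 under its lowest value. The log2 difference of Six6 (chr12:72939892-72944899) was -2.10 (SE 0.39, edgeR adjusted p = 7.6e-04). It was not shared by every section: mean Six6 was 69.2 CPM in the Nms-poor hexagons of section 1 beside 66.4 CPM in the Nms-rich ones there, and 9.02 beside 148 CPM in section 7.

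**Figure D2:**
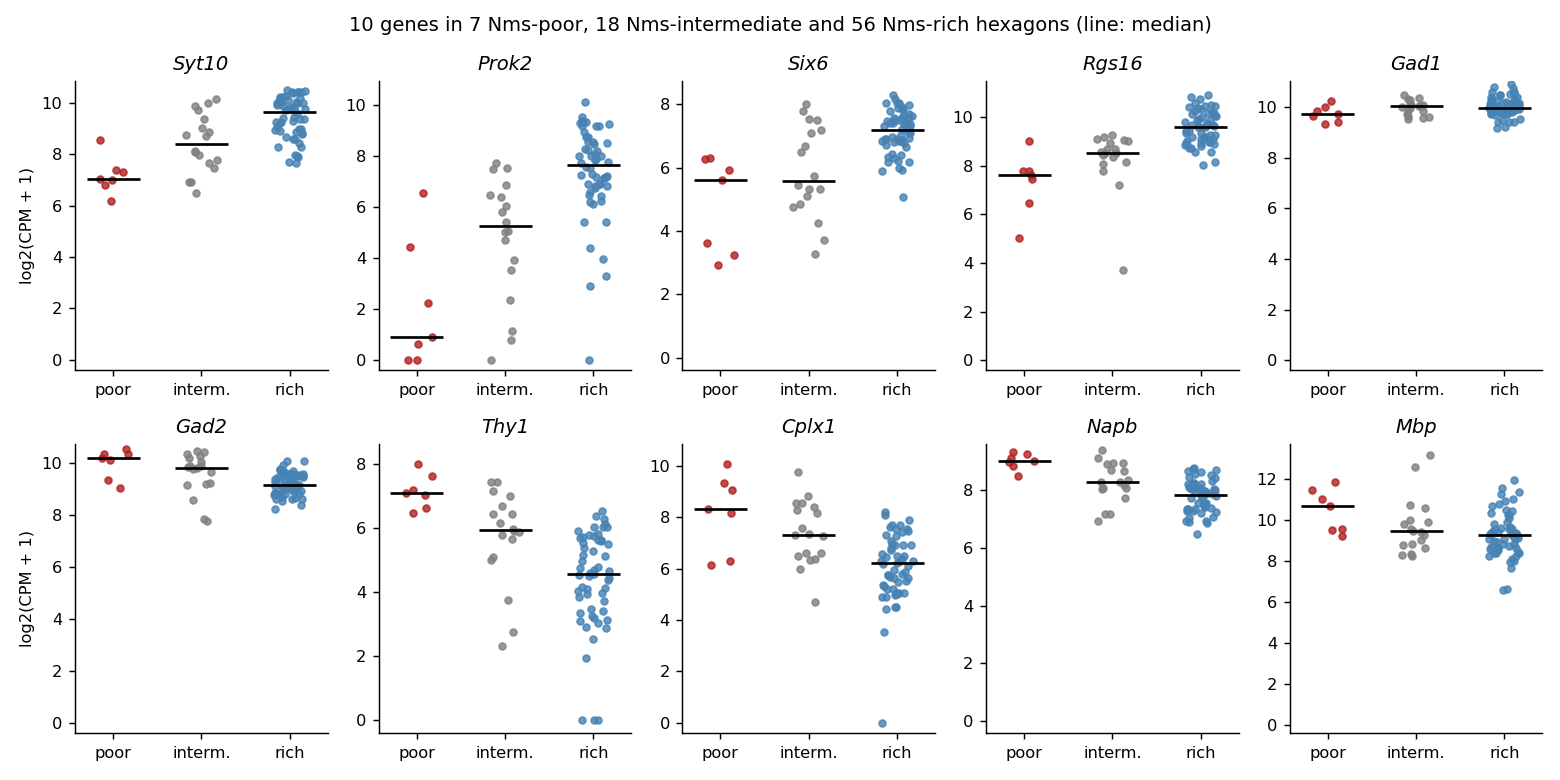
Levels of 10 genes as log2(CPM + 1) on the vertical axis, 1 point per hexagon, in 7 Nms-poor, 18 intermediate and 56 Nms-rich hexagons, with the class median as a line and points spread sideways for legibility. Syt10, Prok2, Six6 and Rgs16 are lower and Gad2, Thy1, Cplx1 and Napb higher in the Nms-poor class, while Gad1 and Mbp did not pass the test.

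Of the peptide receptors in the list, Vipr2, Prokr2 and Grpr were lower. Vipr2, the receptor through which vasoactive intestinal peptide synchronises SCN neurons, had a median of 116 CPM in Nms-poor and 344 CPM in Nms-rich hexagons (log2 difference -2.03, edgeR adjusted p = 0.024). Prokr2, the receptor for prokineticin 2, had medians of 27.6 and 422 CPM (log2 difference -2.17, edgeR adjusted p = 0.019). Grpr, the receptor for gastrin-releasing peptide, was at 0 in 5 of 7 Nms-poor hexagons and in 5 of 56 Nms-rich ones, with a median of 22.9 CPM in the latter (log2 difference -3.57, edgeR adjusted p = 0.035). Rasl11b, a Ras-like small GTPase, had medians of 20.7 and 231 CPM (log2 difference -2.97, edgeR adjusted p = 0.0013). The nuclear receptors Rorb and Rora, which act at the elements that Rev-erb proteins repress, differed less. Rorb had medians of 786 and 1366 CPM (log2 difference -1.26) and Rora of 410 and 791 CPM (log2 difference -0.89). Zfhx3, a zinc finger homeobox factor that sets the pace of the SCN, had medians of 100 and 224 CPM (log2 difference -0.93). Avpr1a, a vasopressin receptor, just missed the threshold (log2 difference -3.18, edgeR adjusted p = 0.053). Lhx1, a factor that maintains peptide expression in the SCN, had medians of 21.8 and 49.4 CPM and was below the Nms-rich median in 7 of 7 Nms-poor hexagons, but was not called (log2 difference -1.03, edgeR adjusted p = 0.33). Adcyap1r1, a receptor for the peptide PACAP, was the sole member with a positive difference (0.56, edgeR adjusted p = 0.19). Calcr, the calcitonin receptor, had a log2 difference of -1.89 and was not called (edgeR adjusted p = 0.40).

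The 10 called members were shared out unevenly over the Nms-poor hexagons. Replicate 12 of section 7, with 2.84 CPM of Nms, had 8 of the 10 below the lowest Nms-rich hexagon, and replicate 13 of section 6 had 0 of 10. All 10 were below the Nms-rich median in 6 of the 7 hexagons, and 9 of 10 in replicate 13 of section 6. The count of called members fell to 1 (Syt10) without section 7, to 5 without replicate 12 of section 7 and to 5 with both coordinates as covariates. It was 4 (Six6, Syt10, Rgs16 and Rasl11b) with genes detected as a covariate and 2 (Syt10 and Rasl11b) with counts summed per section and class. The median of the 18 stayed negative in these 5 fits, between -1.82 and -1.19.

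Of the SCN neuropeptides other than Nms, 14 were listed and 12 tested, and Prok2 (chr6:99711299-99726392) alone was called. The median log2 difference was -0.64, with 4 of 12 positive. Prok2 encodes prokineticin 2, a secreted output signal of the SCN whose transcription is driven by the clock through E-boxes. It was at 0 in 2 of 7 Nms-poor hexagons, with a median of 0.849 CPM and a highest value of 93.4 CPM, against a median of 198 CPM and a highest value of 1120 CPM in Nms-rich hexagons. Of the 56 Nms-rich hexagons 1 also had 0, so the ranges overlap, yet all 7 Nms-poor hexagons were below the Nms-rich median. The log2 difference was -4.01 (SE 0.78, edgeR adjusted p = 0.0018). The difference held in each section, with means of 10.3 and 47.5 CPM in section 1 and of 0.278 and 402 CPM in section 7. Prok2 was not called without section 7 (log2 difference -2.93, edgeR adjusted p = 0.10) or with counts summed per section and class (log2 difference -4.23, edgeR adjusted p = 0.40), and was called with either covariate fit.

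The E-box CACGTG, which reads the same on both strands, was looked for in the RefSeq promoter windows (GRCm38.p6, 250 bases before the gene start) of Prok2 and of the other 13 SCN-enriched and clock genes that were called lower. It was present for 2 of the 14, namely Prok2, 135 bases before the start, and Per1, 166 bases before the start in 1 of its 2 windows. Of 32851 windows of this length, 6.02% hold it. That share is per window, whereas the 14 were counted as genes, and Per1 and Rorb have 2 windows each. The windows of Prok2 (chr6:99726393-99726642, minus strand) and of Nms (chr1:38938899-38939148, plus strand) are shown because these are the called peptide and the marker of the classes, with the E-box in capitals. The Nms window has no match, which says only that these letters are not in it.

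Prok2: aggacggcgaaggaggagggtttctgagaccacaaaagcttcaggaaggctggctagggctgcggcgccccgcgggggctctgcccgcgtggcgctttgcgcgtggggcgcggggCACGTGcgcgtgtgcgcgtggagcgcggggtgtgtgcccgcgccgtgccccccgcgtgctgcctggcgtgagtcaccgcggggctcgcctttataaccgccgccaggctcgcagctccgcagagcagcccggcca

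Nms: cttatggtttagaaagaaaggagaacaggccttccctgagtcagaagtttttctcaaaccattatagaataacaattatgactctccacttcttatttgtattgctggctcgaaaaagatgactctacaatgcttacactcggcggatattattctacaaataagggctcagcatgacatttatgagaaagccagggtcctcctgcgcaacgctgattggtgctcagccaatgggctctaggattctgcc

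Vip and Avp, peptides of the core and the shell of the SCN, did not pass the test. Vip, for vasoactive intestinal peptide, was at 0 in 4 of 7 Nms-poor hexagons, at 3.79 and 8.33 CPM in section 7 and at 1040 CPM in replicate 13 of section 6. In Nms-rich hexagons it ran from 0 to 16430 CPM with a median of 349 CPM, and 9 of them were also at 0 (log2 difference -4.69, edgeR adjusted p = 0.12). Avp, for vasopressin, had 6.63, 64.4 and 465 CPM against 4.05, 333 and 1103 CPM, with 6 of 7 Nms-poor hexagons under the Nms-rich median (log2 difference -1.28, edgeR adjusted p = 0.40). Grp, Cck and Penk had log2 differences of -0.75, 0.49 and -0.15 and were not called. Nms-poor values of Grp and Penk lay within the Nms-rich range. Cck was at 0 in 3 of 7 Nms-poor and 4 of 56 Nms-rich hexagons. In 2 Nms-poor hexagons it lay above the highest Nms-rich value of 294 CPM, with a highest value of 352 CPM. Trh, for thyrotropin-releasing hormone, had the largest positive difference of the list at 3.29 (edgeR adjusted p = 0.10), with medians of 76.4 CPM in Nms-poor and 0 in Nms-rich hexagons, and 38 of the 56 Nms-rich hexagons at 0.

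Clock genes were lower in 3 of 23 cases tested and higher in 0, with a median log2 difference of -0.62 and 19 of 23 negative. Hlf, a PAR bZIP factor of the clock output, had 34.98, 80.8 and 236 CPM in Nms-poor and 101, 207 and 503 CPM in Nms-rich hexagons. It was below the lowest Nms-rich hexagon in 5 of 7 and above the Nms-rich median in replicate 3 of section 3 (log2 difference -1.34, SE 0.27, edgeR adjusted p = 0.0018). Per1, a repressor of CLOCK and BMAL1, had 36.0, 84.4 and 115 CPM against 67.8, 163 and 377 CPM (log2 difference -1.03, edgeR adjusted p = 0.015). Nr1d1, which encodes Rev-erb alpha, had 98.8, 161 and 364 CPM against 103, 364 and 665 CPM (log2 difference -0.99, edgeR adjusted p = 0.0033). Its exons overlap Thra on the other strand, and the strand setting of the counting is not known. Clock and Arntl, for the activators CLOCK and BMAL1, had log2 differences of -0.66 and -0.87 and were not called (edgeR adjusted p = 0.13 and 0.19). No clock gene was called without section 7, with both coordinates as covariates or with counts summed per section and class, and Hlf alone with genes detected as a covariate. The time of collection is not given, so a difference in clock phase between hexagons and a difference in level cannot be told apart.

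Further genes that fell most, outside the lists, have mixed roles. Nkd1, an antagonist of Wnt signalling, was at 0 in 5 of 7 Nms-poor hexagons with a highest value of 2.41 CPM, against a median of 24.9 CPM in Nms-rich hexagons, 5 of which were at 0 (log2 difference -5.08, SE 0.99, edgeR adjusted p = 0.0012). Chrna3, a nicotinic acetylcholine receptor subunit, was at 0 in 4 of 7 with a highest value of 19.3 CPM, against a median of 38.6 CPM (log2 difference -2.97, edgeR adjusted p = 0.0059). Ust, a sulfotransferase of proteoglycan synthesis, and Vps37c, a subunit of the endosomal ESCRT-I complex, had log2 differences of -3.41 and -3.28 with Nms-poor medians of 0. Hcn4, a pacemaker cation channel, and Slc12a7, a potassium-chloride cotransporter, had log2 differences of -2.67 and -2.54, with Nms-rich medians of 24.3 and 83.6 CPM. Elp6, an Elongator subunit, Xpo4, a nuclear exportin, and the uncharacterised 9230110C19Rik completed the 12 largest falls that the naming rule took, at -2.89, -2.66 and -2.92. These are low counts: none of the genes in this paragraph other than Slc12a7 exceeded a median of 41 CPM in either class. Without section 7 only 9230110C19Rik of them was called, and none was with counts summed per section and class. With genes detected as a covariate 9230110C19Rik, Chrna3, Nkd1 and Ust were called, and with both coordinates all of these but Ust. Of 33 alternative fits, Xpo4 was called in 14, Elp6 and Hcn4 in 18, Slc12a7 in 19, Vps37c in 22 and Ust in 24. Nkd1 and Chrna3 were called in 29 and 9230110C19Rik in 31.

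Several well-measured transcripts outside the lists fell as well, and 3 of them were called in all alternatives. They were singled out after their values were seen, as the genes also called when counts were summed per section and class, a fit in which each section gives 1 value per class. That fit called 16 genes, all among the 269, of which 10 were lower. Tcf12, an E-protein transcription factor, had 63.7, 108 and 144 CPM in Nms-poor and 94.3, 324 and 743 CPM in Nms-rich hexagons (log2 difference -1.57, SE 0.22, edgeR adjusted p = 5.6e-06), and the gene lies at chr9:71842688-72111871. Flrt3, an adhesion protein of axons and synapses, had 26.3, 98.6 and 193 CPM against 74.0, 335 and 718 CPM (log2 difference -1.50, SE 0.24, edgeR adjusted p = 1.9e-04). Pcsk2, a convertase that cuts peptide precursors into active peptides, had 56.1, 246 and 317 CPM against 154, 461 and 780 CPM (log2 difference -1.22, edgeR adjusted p = 8.9e-04). Tcf12, Flrt3 and Pcsk2 were called in 33 of 33 alternatives, as was Syt10. Exons of Pcsk2 overlap its annotated antisense genes. Scg2, a granin of dense-core vesicles, had a median of 1346 CPM against 4436 CPM and was below the lowest Nms-rich hexagon in 4 of 7 (log2 difference -1.33, edgeR adjusted p = 6.8e-04). Pde10a, a cyclic nucleotide phosphodiesterase, and Cacna1e, a voltage-gated calcium channel, had log2 differences of -1.50 and -1.06. Malat1, a nuclear long non-coding RNA, had 1183, 2973 and 4170 CPM against 2506, 5438 and 10296 CPM (log2 difference -1.11, edgeR adjusted p = 8.1e-04). Rasl11b, Syt10 and the predicted gene Gm10800 were the other lower genes of that fit. Without section 7, Tcf12, Flrt3, Pcsk2, Cacna1e and Syt10 were still called, with log2 differences of -1.63, -1.62, -1.10, -1.14 and -1.39.

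Among vesicle fusion transcripts, Napb, Nsf, Cplx1, Cplx2 and Syt1 were more abundant in Nms-poor hexagons. The list was chosen after values were seen, and 5 of its 19 tested members were higher and 0 lower, with a median log2 difference of 0.50. Napb, which encodes beta-SNAP, the adaptor that brings NSF to used SNARE complexes, had 352, 508 and 626 CPM in Nms-poor and 87.1, 227 and 426 CPM in Nms-rich hexagons. It lay above the highest Nms-rich hexagon in 6 of 7 (chr2:148693985-148732467, log2 difference 1.05, SE 0.19, edgeR adjusted p = 7.6e-04). Nsf, the ATPase that takes those complexes apart, had 351, 587 and 1125 CPM against 90.9, 347 and 709 CPM (log2 difference 0.96, SE 0.18, edgeR adjusted p = 0.0010). Cplx1 and Cplx2 encode complexins, which bind SNARE complexes before release. Cplx1 had 68.9, 318 and 1066 CPM against 0, 72.9 and 292 CPM and was above all Nms-rich hexagons in 4 of 7 (log2 difference 2.31, SE 0.47, edgeR adjusted p = 0.0026). Its highest values were 1066 and 637 CPM, both in section 7, and its lowest 68.9 CPM in section 1. Cplx2 had 117, 204 and 330 CPM against 2.60, 79.7 and 205 CPM (log2 difference 1.38, edgeR adjusted p = 0.012). Syt1, the calcium sensor of fast transmitter release, had 352, 902 and 1199 CPM against 41.4, 293 and 732 CPM and exceeded all Nms-rich hexagons in 5 of 7 (log2 difference 1.31, edgeR adjusted p = 0.031). Syt1 and Syt10 thus moved in opposite directions. Snap25 and Vamp2, which encode core SNARE proteins, had log2 differences of 0.44 and 0.21 and were not called. No member was called without section 7, 3 were called without its replicate 12, and 4 (Nsf, Napb, Cplx1 and Syt1) with counts summed per section and class. With genes detected as a covariate 2 were called (Nsf and Napb), and with both coordinates 1 (Napb).

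Thy1 (chr9:44043384-44048579), a surface glycoprotein abundant on many projection neurons, was among the genes that rose most. It had 88.7, 137 and 256 CPM in Nms-poor and 0, 23.0 and 92.4 CPM in Nms-rich hexagons, 3 of which were at 0. In 6 of 7 Nms-poor hexagons it was above the highest Nms-rich one, and the remaining hexagon was replicate 13 of section 6 (log2 difference 2.14, SE 0.46, edgeR adjusted p = 0.0035). It was higher in each section, with means of 139 and 37.3 CPM in section 1 and of 196 and 32.0 CPM in section 7. Thy1 and Cplx1 were the 2 called of 13 tested genes of a neurofilament and fast-axon list, whose median log2 difference was 1.93 with 11 of 13 positive, beside -0.06 over all tested genes. Nefl, the light neurofilament subunit, had medians of 137 and 16.3 CPM (log2 difference 2.25, edgeR adjusted p = 0.086), Vamp1, a vesicle SNARE, 81.7 and 21.3 CPM (2.07, edgeR adjusted p = 0.052) and Scn1a, a sodium channel, 96.4 and 33.4 CPM (1.55, edgeR adjusted p = 0.092). Nefh, the heavy neurofilament subunit, had a log2 difference of -0.41. The summed level of the list ran from 503 to 3180 CPM in Nms-poor and from 274 to 1201 CPM in Nms-rich hexagons. Its median was 0.84 without section 7, where no member was called. No member was called with genes detected or with both coordinates as covariates either, where the edgeR adjusted p of Thy1 was 0.096 and 0.067 and that of Cplx1 0.084 and 0.052. Both genes were called with counts summed per section and class.

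**Figure D3:**
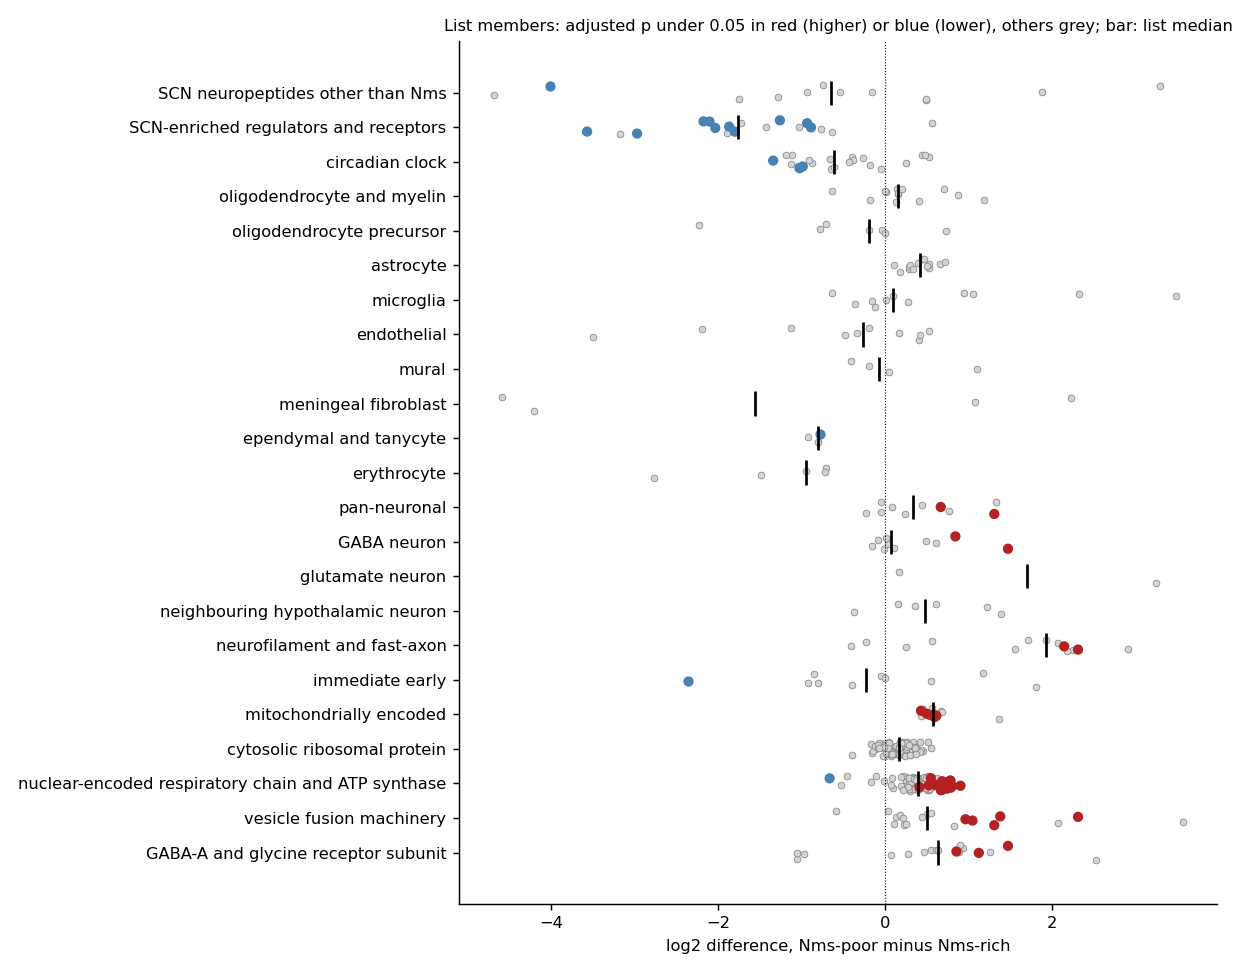
Each point is 1 tested gene of a list, placed by its log2 difference, Nms-poor minus Nms-rich, on the horizontal axis. Red points are called higher, blue points called lower and grey points not called, and the bar is the list's median. The SCN-enriched list lies left of 0 but for 1 gene, with a median of -1.76, and the mitochondrially encoded list right of 0 with a median of 0.58.

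GABA synthesis divided by enzyme. Gad2 (chr2:22622205-22693874), the glutamate decarboxylase that is concentrated at terminals, had 523, 1165 and 1481 CPM in Nms-poor and 302, 573 and 1095 CPM in Nms-rich hexagons, above the Nms-rich range in 5 of 7 (log2 difference 0.84, SE 0.18, edgeR adjusted p = 0.0030). Gad1, the enzyme found throughout the neuron, had 641, 854 and 1232 CPM against 583, 1013 and 1913 CPM (log2 difference -0.09, SE 0.15, edgeR adjusted p = 0.88). On the length-adjusted RPKM scale the median of Gad2 was 198 and that of Gad1 112 in Nms-poor hexagons, while in Nms-rich hexagons they were 97.6 and 133. The order of the 2 medians was therefore opposite in the classes. Of 10 GABA neuron genes tested, 2 were higher, Gad2 among them, and 0 lower, with a median log2 difference of 0.07. The vesicular GABA transporter Slc32a1 (0.49) and Dlx1, Dlx2, Dlx5 and Dlx6 (-0.01 to 0.10), homeobox factors of GABA neurons, were not called. Gad2 was called with genes detected, or both coordinates, as covariates, but not without section 7 (log2 difference 0.65, edgeR adjusted p = 0.23) or with counts summed per section and class (0.88, edgeR adjusted p = 0.14). In the latter 2 fits 0 genes of the list were called.

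GABA-A and glycine receptor subunits, in a list chosen after values were seen, were higher in 3 of 17 cases and lower in 0, with a median log2 difference of 0.63. Gabrg1, a gamma subunit, had 150, 449 and 624 CPM against 52.4, 171 and 626 CPM (log2 difference 1.12, edgeR adjusted p = 0.046). Glrb, the beta subunit that anchors glycine receptors, had 113, 205 and 354 CPM against 27.7, 138 and 285 CPM (log2 difference 0.85, edgeR adjusted p = 0.0345). For both genes the ranges of the classes overlapped, and no member was called without section 7, without its replicate 12, with genes detected or both coordinates as covariates, or with counts summed per section and class. Gabrg3, another gamma subunit, had a negative log2 difference of -1.05 (edgeR adjusted p = 0.090).

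The other genes among the 12 largest rises were Rgs8, Rgs2, Mob2, Socs5, C1qbp and Chd3os. Rgs8, a regulator of G protein signalling, had 45.5, 60.3 and 201 CPM against 0, 9.07 and 153 CPM, with 9 of 56 Nms-rich hexagons at 0 (log2 difference 3.17, SE 0.77, edgeR adjusted p = 0.012). It was above the Nms-rich median in 7 of 7, the opposite of its relative Rgs16. Rgs2, of the same family, had a median of 59.9 against 27.4 CPM (log2 difference 1.83, edgeR adjusted p = 0.028). Chd3os had a median of 295 against 142 CPM (log2 difference 1.09, edgeR adjusted p = 0.0012), but means of 154 and 155 CPM in section 1. Rgs8, Rgs2, Mob2, Socs5, C1qbp and Chd3os were not called without section 7 or with counts summed per section and class. With genes detected or both coordinates as covariates they were not called either. Of 33 alternative fits they were called in 25, 22, 15, 21, 19 and 29. Exons of Rgs8, Rgs16 and Six6 overlap other genes on the opposite strand. Elavl4, a neuronal RNA-binding protein, was with Syt1 the second of 10 pan-neuronal genes to be higher (log2 difference 0.67, edgeR adjusted p = 0.035). Map2, Stmn2 and Uchl1, which are abundant in all neurons, had log2 differences of -0.05, -0.05 and 0.09. The median log2 difference of the 10 was 0.34, with 7 of 10 positive. Their summed level had a median of 6464 CPM in Nms-poor and 5283 CPM in Nms-rich hexagons. No pan-neuronal gene was called without section 7, or with genes detected or both coordinates as covariates. Syt1 alone was called with counts summed per section and class.

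Some mitochondrial transcripts, encoded in the mitochondrial and in the nuclear genome, were higher in Nms-poor hexagons, which also had fewer genes detected. Of 12 tested mitochondrially encoded genes 6 were higher and 0 lower, with all 12 positive and a median log2 difference of 0.58. mt-Nd4, a subunit of complex I, had 1502, 1900 and 2498 CPM in Nms-poor and 912, 1327 and 2104 CPM in Nms-rich hexagons (log2 difference 0.60, SE 0.11, edgeR adjusted p = 6.8e-04). mt-Nd2, mt-Nd5 and mt-Cytb had log2 differences of 0.61, 0.54 and 0.59, while mt-Nd1 and mt-Co1 had 0.43 and 0.50. The count was 5 without section 7, and it was 3 (mt-Nd2, mt-Nd4 and mt-Cytb) both with genes detected and with coordinates as covariates. Summing counts per section and class left 0 of these genes called, with the median at 0.60.

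Nuclear genes for the respiratory chain and ATP synthase formed a list chosen after values were seen. Of 77 tested, 15 were higher and 1 lower, with a median log2 difference of 0.39 and 71 of 77 positive. Ndufa4, of complex IV, had 277, 387 and 530 CPM against 103, 242 and 383 CPM (log2 difference 0.73, SE 0.15, edgeR adjusted p = 0.0025). Cox5b, of the same complex, and Ndufs8, of complex I, had log2 differences of 0.78 and 0.78 (edgeR adjusted p = 0.0044 and 0.0079). Ndufs4, also of complex I, was the lower gene (log2 difference -0.66, edgeR adjusted p = 0.025). Without section 7 the list kept Ndufa4 and Ndufs8, and 4 members were called higher without its replicate 12. No member was called higher with genes detected or with coordinates as covariates, or with counts summed per section and class. Cytosolic ribosomal protein genes, another abundant class, had 0 called of 78, with a median of 0.17.

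None of the oligodendrocyte, astrocyte, microglial, vascular, meningeal and erythrocyte marker lists had a called member. Oligodendrocyte and myelin genes had 0 called of 13 tested, a median log2 difference of 0.15 and summed levels of 862 to 15417 CPM in Nms-poor and 202 to 11991 CPM in Nms-rich hexagons. Mbp, myelin basic protein, had 606, 1637 and 3678 CPM against 94.7, 612 and 3982 CPM and was above the Nms-rich median in 6 of 7 (log2 difference 0.71, edgeR adjusted p = 0.54). Mog, a mature myelin protein, was at 0 in 4 of 7 Nms-poor and 28 of 56 Nms-rich hexagons. Myelin transcripts were therefore abundant in some Nms-poor hexagons and scarce in others. Astrocyte genes had 0 called of 14 but all 14 positive, with a median of 0.42. Their summed level was 5536 to 10582 CPM against 1650 to 9935 CPM. Ndrg2, an astrocyte-enriched gene outside the list that was named because it was called on summed counts, had 910, 1828 and 2106 CPM against 308, 1034 and 1634 CPM. It was above the highest Nms-rich hexagon in 5 of 7 (log2 difference 0.75, edgeR adjusted p = 0.024), and was not called without section 7 (edgeR adjusted p = 0.26) or with genes detected as a covariate (edgeR adjusted p = 0.29). The largest differences of the list were those of Aldoc, a glycolytic enzyme of astrocytes, at 0.72 and Agt, angiotensinogen, at 0.66 (edgeR adjusted p = 0.10 and 0.11). Lists for microglia, endothelium, mural cells, meningeal fibroblasts, oligodendrocyte precursors and erythrocytes had 0 called of 11, 10, 4, 4, 7 and 5 tested genes, with median log2 differences of 0.10, -0.26, -0.07, -1.56, -0.19 and -0.95. The part of these cells in the calls was not tested.

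Genes of neighbouring hypothalamic neurons were mostly too low to test. Of 25 listed, 6 were tested and 0 called, with a median log2 difference of 0.48. Oxt, the oxytocin gene of the paraventricular and supraoptic nuclei, was at 0 in all 7 Nms-poor hexagons and in 51 of 56 Nms-rich ones. Of 2 glutamate neuron genes tested 0 were called. Slc17a6, the glutamate transporter of hypothalamic excitatory neurons, was at 0 in 3 of 7 Nms-poor and 42 of 56 Nms-rich hexagons, with highest values of 74.3 and 88.2 CPM (log2 difference 3.24, edgeR adjusted p = 0.15). Its 2 highest Nms-poor values were in replicate 2 of section 3 and replicate 13 of section 6. Nnat, neuronatin, was the called member of 3 tested ependymal and tanycyte genes and is also expressed by neurons. It had 1132, 1573 and 3743 CPM against 1567, 3505 and 5318 CPM (log2 difference -0.78, edgeR adjusted p = 0.012), while Vim, the tanycyte filament, had a log2 difference of -0.92 (edgeR adjusted p = 0.72). In section 6 Nnat was 3743 CPM beside a mean of 3248 CPM in Nms-rich hexagons. Nnat was called with both coordinates as covariates. It was not called with genes detected as a covariate, without section 7 or with counts summed per section and class (edgeR adjusted p = 0.13, 0.38 and 0.26). Among 10 immediate early genes, Nr4a3, an orphan nuclear receptor, was lower (medians of 4.64 and 37.2 CPM, log2 difference -2.36, edgeR adjusted p = 0.015). Its Nms-poor values rest on 0 to 28 counts, and its difference in mean log2(CPM + 1) was 0.12 in section 1. No immediate early gene was called without section 7 or with counts summed per section and class. None was called with genes detected or both coordinates as covariates. Fos and Jun had log2 differences of -0.39 and -0.05, and 0 were higher.

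Intermediate hexagons, which were not in the fit, had a median between those of the classes for 50 of 57 named genes that were called. These genes were chosen for a difference between the classes, which makes a median in between likely. The share over all tested genes was not computed. Their medians were 346 CPM for Syt10, 369 for Rgs16, 37.1 for Prok2, 60.8 for Thy1, 159 for Cplx1, 307 for Napb and 910 for Gad2. The 7 exceptions were Six6, 9230110C19Rik, Elp6, Ust, Xpo4, Socs5 and Mob2. Six6 had an intermediate median of 47.0 CPM beside 47.5 in Nms-poor and 146 in Nms-rich hexagons. Using log2(CPM + 1) of Nms as a continuous measure over the 81 hexagons with the depth minimum called 466 genes, 192 of them among the 269.

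**Figure D4:**
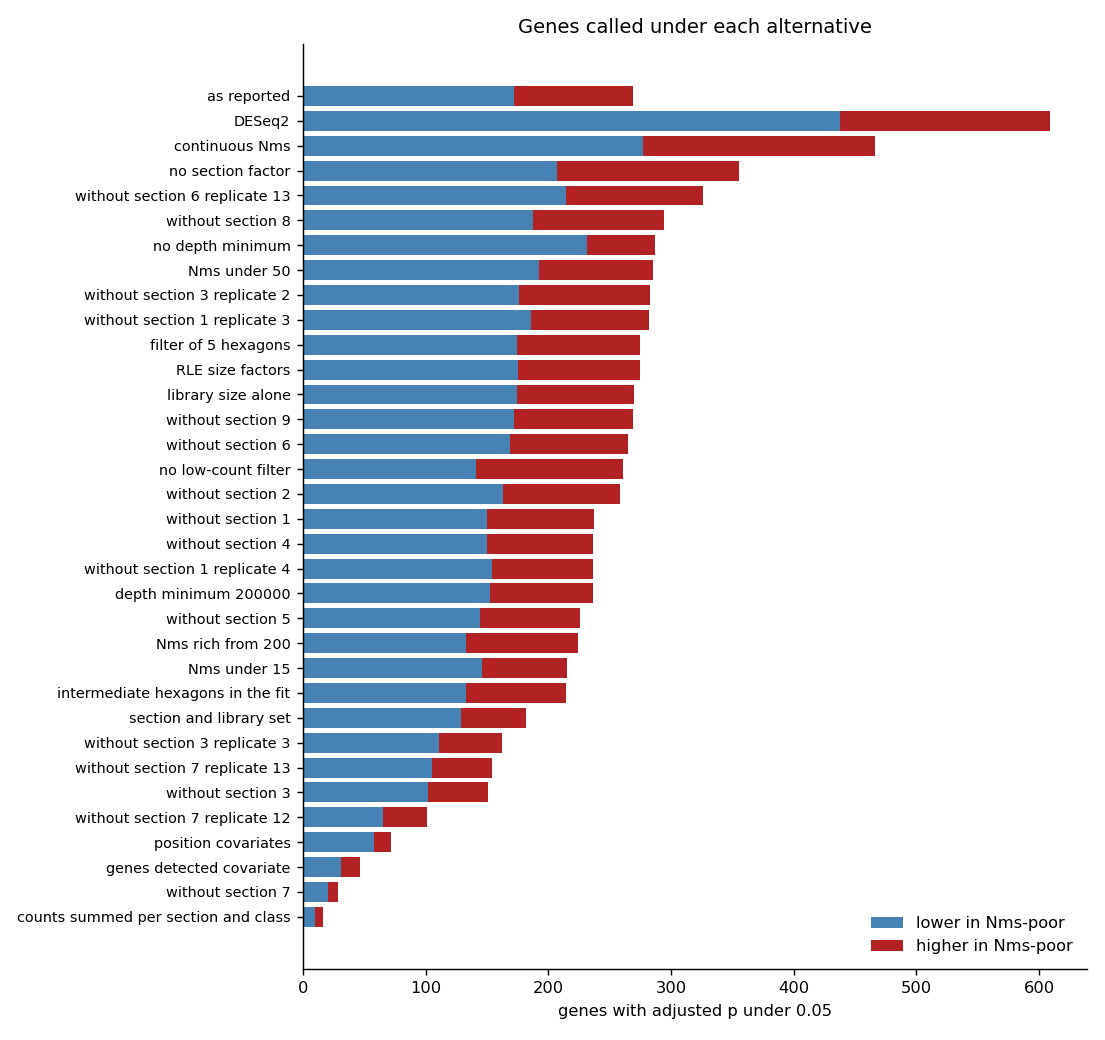
Number of genes at an adjusted p under 0.05 (horizontal axis) in the reported fit and in each of 33 alternatives, with genes lower in Nms-poor hexagons in blue and higher in red. The total runs from 16 with counts summed per section and class to 609 with DESeq2, and it is 269 as reported.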

How the data were processed

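Whole-number counts per gene, deposited by the authors for 27515 genes in 82 libraries, were used as they are, and no count column was left unmapped. Per the submitters' processing notes, bcl2fastq 2, STAR and the GRCm38 build were used. What counted the reads, with which strand setting and gene models, is not given in the sources used here. Deposited RPKM values, made by the authors, equal the counts over gene length and library total to a relative deviation of 5.2e-15 and served for levels between genes. CPM is count times 1000000 over the column total. Libraries under 100000 counts were left out. Genes reaching 10 counts in at least 10 hexagons were tested with edgeR 4.0.16 in R 4.3.3 (quasi-likelihood, TMM, robust, section as a factor, Benjamini-Hochberg, threshold 0.05). Nms was not tested. The biological coefficient of variation was 0.698. The fit was tested on simulated data with independent hexagons and no section effect. It recovered 65% of 100 genes changed by a log2 of 2 and 84% of 100 changed by 3, with 5 false calls. Hexagons that share a mouse were not simulated. Position and library measures used exact permutation within sections, since all 59400 arrangements could be enumerated, with Benjamini-Hochberg adjustment over 6 measures. DESeq2 1.42.0 was an alternative.

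Named genes were the 12 largest differences in each direction among called genes with a mean of 20 CPM or more and 1 sign with each section left out, up to 4 called members per list, and 14 fixed genes. Genes called on summed counts and members of 3 lists (respiratory chain and ATP synthase, vesicle fusion, GABA-A and glycine receptors) were added after values were seen, as were the uncalled list members given as examples. The members and lists were chosen with earlier results of these data known. Exon overlaps come from GENCODE M21: 12 of 67 named genes overlap another gene, 9 on the other strand, where unstranded reads cannot be told apart. Mitochondrial and ribosomal genes have near-identical copies. Library set, the first letter of a label, is an inference. Some list members are not reported here by name.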

Additional observations from a re-analysis of the deposited data

Results flagged for a closer look

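A gap between 1 hexagon and the other 6 Nms-poor ones wider than Dixon's 95% limit (0.568 of the range for 7 values, on log2(CPM + 1)) was found for 4 of 73 measures examined. Chance gives about 1 in 20. Vip was 1039.89 CPM in replicate 13 of section 6, the next highest being 8.33 CPM. This hexagon also had the highest Avp, Prok2, Syt10 and Rgs16 of the 7. Vps37c was 34.3696 CPM and Grpr 13.0047 CPM in replicate 2 of section 3, where the other Nms-poor hexagons had at most 2.30 and 0.948 CPM. Pcsk2 was 56.0826 CPM in replicate 13 of section 7, below the next lowest at 171 CPM. Without section 6 replicate 13, 326 genes were called.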

How the results depend on the processing

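The 269 calls became 609 with DESeq2 (267 shared), 466 with Nms as a continuous measure, 72 with both coordinates as covariates (14 higher and 58 lower), 46 with genes detected as a covariate (15 higher and 31 lower, 45 shared) and 16 with counts summed per section and class. Leaving out a section or an Nms-poor hexagon gave 28 (without section 7) to 326 genes (without replicate 13 of section 6). It gave 151 without section 3, 162 without its replicate 3, 101 without replicate 12 and 154 without replicate 13 of section 7. Other scalings, count filters, depth minimums and Nms limits gave 215 to 287, section with library set 182, no section factor 355 and the intermediate hexagons in the fit 214. No called gene changed sign, in fits that reuse most of the same hexagons. The cause of these changes was not tested. Calls within the lists, the 3 chosen after values were seen aside, fell from 28 to 11 with both coordinates as covariates. Without section strata the difference in genes detected was -504 (permutation, adjusted p = 0.118). Leaving out each Nms-poor hexagon, chosen after seeing the data, gave 154 to 183 for the medial-lateral coordinate, 16.1 to 61.8 for the dorsal-ventral one, 11.1 to 32.2 for distance, -873 to -678 for genes detected, 0.494 to 0.615 for mitochondrial percent and -0.00981 to 0.0397 for log10 totals. By replicate number, no paired analysis was possible because these numbers are names in accession order. Section, which pairs the classes in 4 sections, was a factor in the fit, and the summed counts give 1 value per section and class. The 7 Nms-poor hexagons in 4 sections limit the precision of every value.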
